A study of Mus musculus with 27 samples.

Results

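Edn3, Pthlh, Ccn4, Emilin3, Chst3, Kdelr3, Gpr4, Frk, Fam49a and Prdm6 were read in every control library of the dorsal optic stalk (OS) and were absent or nearly absent from every mutant library of that region. They were chosen by raw counts, with 10 or more counts in each of the 4 dorsal control libraries and 3 or fewer in each of the 5 dorsal mutant libraries. Of the 55487 genes in the count table, 17 met these limits, and the 10 genes described here are among them. Because the dorsal counts chose the genes, every dorsal value below is a description and carries no test. The tests concern the ventral OS and the axon region, whose libraries had no part in the choice.

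RNA came from mouse embryos at embryonic day (E) 14, from 4 control and 5 Smarcc1-DCT-cKO embryos. Laser capture microdissection was used to take a dorsal, a ventral and a retinal ganglion cell axon region of the OS from sections of each embryo, which gave 27 libraries. According to the study's methods, mutants carried Baf155 loxP/loxP (Baf155 is an older name of Smarcc1) with Dct-Cre and the Z/EG reporter, controls were littermates without Dct-Cre, and all lines were kept on a C57Bl6/J background. Dct-Cre is driven by the promoter of the pigment gene Dct, and the study places its activity in the dorsal OS first and in the ventral OS later, so the time since deletion differs between regions. Per the labels, batch A holds control 1 and mutants 1 to 3, and batch B holds controls 2 to 4 and mutants 4 and 5.

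Libraries held between 10.9 and 34.0 M counts (M stands for 1000000). Levels are given as CPM, the count scaled to a library of 1 M, and a single read was worth 0.0294 to 0.0917 CPM. The whole-gene level of Smarcc1, the targeted gene, was 75.9 to 289 CPM in dorsal controls and 2.26 to 107 CPM in dorsal mutants. These ranges overlapped, because the dorsal libraries labelled mutant 1 (94.9 CPM) and mutant 2 (107 CPM) lay within the control range. In the ventral OS the levels were 75.7 to 198 CPM in controls and 14.7 to 64.4 CPM in mutants, and in the axon region 50.1 to 242 CPM and 1.86 to 44.9 CPM, with no overlap in either region. Counts cover the whole gene and so include exons outside the deleted part. Whether this bears on the levels in dorsal mutants 1 and 2 was not tested. Without dorsal mutants 1 and 2, 31 genes met the limits, and all 10 genes remained among them, as a rule on fewer libraries requires.

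The dorsal OS is the upper wall of the tube that joins the optic cup to the brain. It is continuous with the pigment epithelium, is wrapped in head mesenchyme and vessels, and gives rise to astrocyte progenitors of the optic nerve. The 10 genes belong to no single pathway. Edn3 and Pthlh encode secreted ligands. Ccn4 and Emilin3 encode proteins of the extracellular matrix, Chst3 an enzyme that sulphates matrix chains, and Kdelr3 a receptor of the secretory route. Gpr4 encodes a cell surface receptor, Frk and Fam49a encode intracellular signalling proteins, and Prdm6 a nuclear repressor.

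Whether the promoters had a sequence feature in common was examined first, since the genes were chosen by the same count limits in the dorsal libraries. RefSeq promoters of 300 bases (250 before to 50 after the start, GRCm38.p6) were at hand for 7 of the 10 genes, Fam49a under its newer symbol Cyria. Their GC content ranged from 43.7% (Frk) to 74.0% (Pthlh), with a median of 66.3% against 52.7% over 32851 promoters. The stretches just upstream of the RefSeq start of these extremes are shown because they mark the spread, with each CG pair in capitals. For Pthlh the GENCODE start lies further upstream, so its stretch falls within the gene span given below. The Pthlh stretch holds 9 CG pairs (chr6:147264014-147264113, minus strand) and the Frk stretch 0 (chr10:34483300-34483399, plus strand).
Pthlh: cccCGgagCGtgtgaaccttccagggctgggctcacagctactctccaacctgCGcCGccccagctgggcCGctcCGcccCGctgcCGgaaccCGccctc
Frk: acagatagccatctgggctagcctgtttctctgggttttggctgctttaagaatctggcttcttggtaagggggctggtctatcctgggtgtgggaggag
On either strand, 0 of the 7 promoters held GGAATG (bound by TEAD factors), CACGTG (the E-box of MITF and others), TATAAA (a core promoter word), GTAAACA (forkhead) or TGACTCA (AP-1). These words occur in 14.7%, 7.15%, 13.6%, 3.65% and 5.20% of all promoters of the same length. A missing match says only that these letters are not in the window.

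The dorsal values are given by role, beginning with the ligands. Edn3 (chr2:174760619-174784042) encodes endothelin 3, which acts on the receptor Ednrb and is needed by melanocytes and enteric neurons of the neural crest. In dorsal controls 1 to 4 Edn3 stood at 0.665, 64.0, 16.5 and 14.7 CPM, and it had 0 counts in each of the 5 dorsal mutants. Control 1 was far below the other controls, with 16 counts. Pthlh (chr6:147252101-147264183) encodes a peptide that signals through Pth1r and holds back cartilage maturation. Its levels were 36.2, 90.2, 3.48 and 28.5 CPM in controls 1 to 4, with control 3 the lowest, and all 5 mutants had 0 counts.

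Both matrix genes were highest in dorsal control 3. Ccn4 (chr15:66891320-66923201), a matricellular protein and target of Wnt signalling, was at 20.6, 113, 177 and 48.0 CPM in controls 1 to 4 and at 0 counts in every mutant. Emilin3 (chr2:160906437-160912328) encodes a glycoprotein of elastic matrix. Its control levels of 5.53, 10.05, 215 and 4.58 CPM show that control 3 alone carried most of its reads, and all 5 mutants had 0 counts. Leaving control 3 out, the other controls still had 68 to 162 counts of Emilin3.

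Chst3 and Kdelr3 act in the secretory route. Chst3 (chr10:60181532-60219260), the sulphotransferase that adds sulphate to the 6-position of chondroitin, was at 39.8, 58.3, 75.7 and 4.64 CPM in controls 1 to 4. The library labelled mutant 2 had 1 count of it and the other mutants had 0. Kdelr3 (chr15:79516411-79527739) encodes a receptor that returns escaped proteins to the endoplasmic reticulum. Its control levels of 102, 145, 61.5 and 66.9 CPM lay close together, and it was at 0 counts in every mutant.

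Gpr4, Frk and Fam49a act in signalling. Gpr4 (chr7:19212538-19224174), a receptor that senses protons, was at 0.832, 35.8, 0.767 and 15.0 CPM in controls 1 to 4, and controls 1 and 3 had only 20 and 13 counts. Frk (chr10:34483399-34611278), a kinase related to Src, was at 11.1, 3.78, 127 and 0.942 CPM. Control 3 was again the highest and control 4, with 14 counts, was near the limit of 10. Fam49a (chr12:12262139-12380965), which binds Rac1 and restrains actin branching, was the steadiest of the 10 at 65.9, 93.8, 51.9 and 85.7 CPM. It had 2 counts in the library labelled mutant 2 and 1 count in mutant 5, while Gpr4 and Frk had 0 counts in all 5 mutants. Prdm6 (chr18:53463583-53575907), a repressor known from smooth muscle, was at 31.9, 2.42, 56.1 and 6.39 CPM in controls and 0 counts in every mutant.

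**Figure D1:**
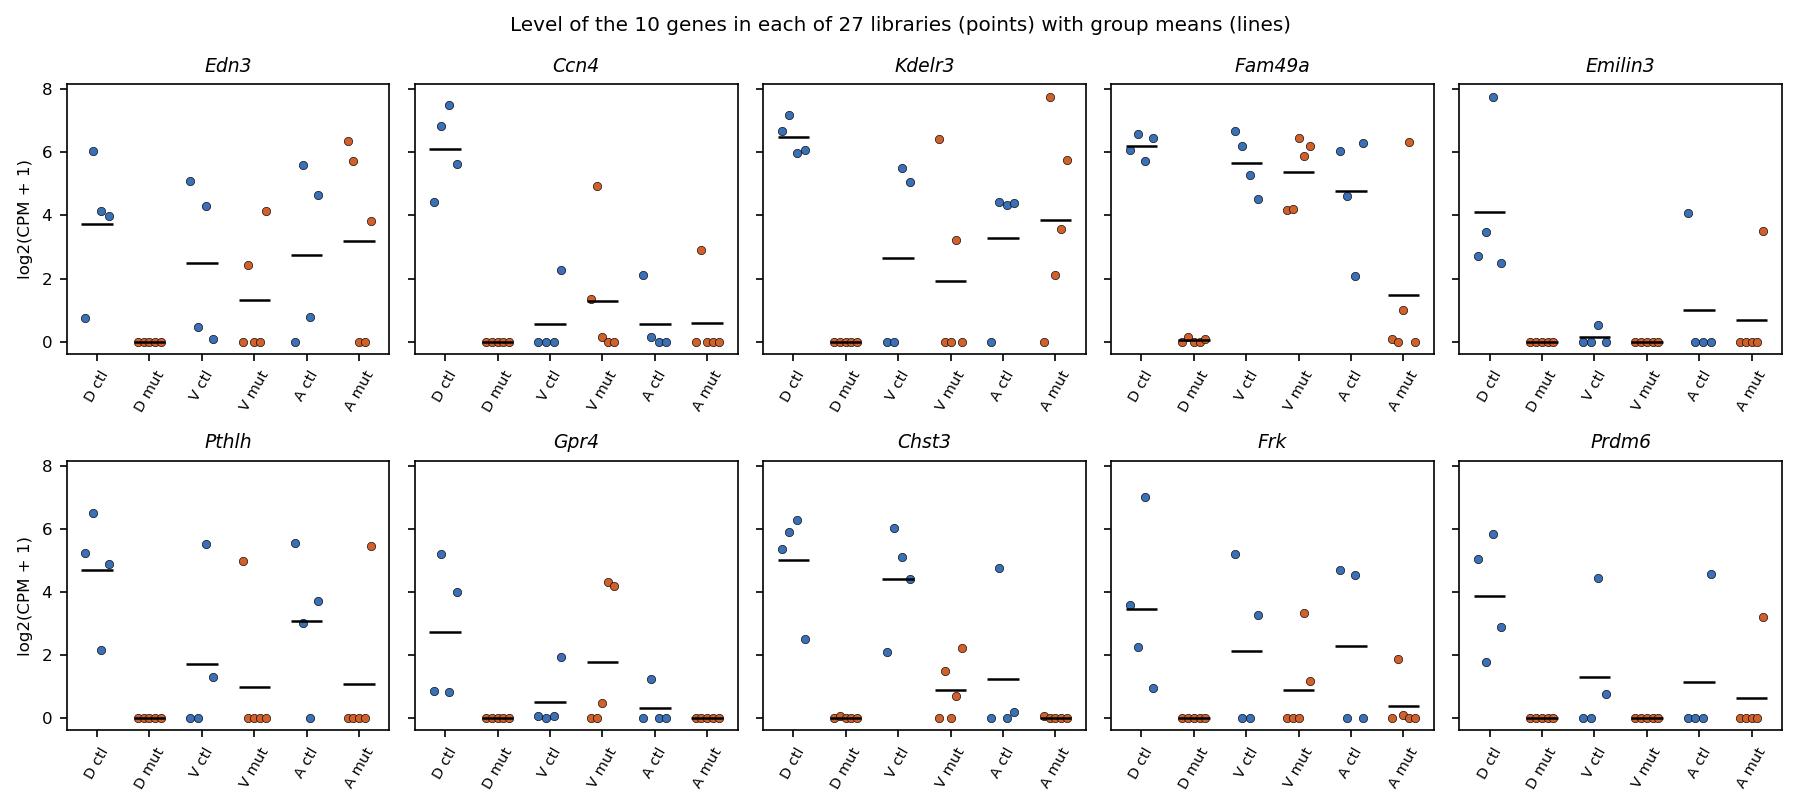
Each panel plots the log2(CPM + 1) level of a gene (vertical axis) in 27 libraries, grouped as dorsal (D), ventral (V) and axon (A) control (ctl, blue, n = 4) and mutant (mut, orange, n = 5). Points are libraries and lines are group means. The dorsal mutants lie at or near 0 in all 10 panels by the choice of genes, while most ventral and axon groups hold both libraries near 0 and libraries at the level of dorsal controls.

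Over the 10 genes and 5 dorsal mutants, 4 reads were counted in all. The mean floor of the dorsal mutants, at 3 counts per library, was 0.214 CPM. Measured against that floor, dorsal mutants were at least 437-fold lower than the control mean for Kdelr3, at least 419-fold lower for Ccn4 and at least 347-fold lower for Fam49a. The bounds for the other 7 genes ran from at least 61.1-fold (Gpr4) to at least 274-fold (Emilin3). These bounds rest on control means of unequal stability. Without dorsal control 3 the bound fell to 31.3-fold for Emilin3, 24.5-fold for Frk and 63.3-fold for Prdm6, from 274-fold, 166-fold and 113-fold. Without dorsal control 2 it fell to 49.5-fold for Edn3, 106-fold for Pthlh and 25.8-fold for Gpr4, from 112-fold, 185-fold and 61.1-fold. The highest dorsal control exceeded the lowest by 1.81 times for Fam49a and 2.35 times for Kdelr3, but by 96.2 times for Edn3 and 135 times for Frk. Per kilobase of exon, the control mean was highest for Kdelr3 (66.4 ± 27.2 CPM per kb, SD, n = 4), followed by Pthlh (24.5 ± 22.6), Emilin3 (16.6 ± 29.4) and Ccn4 (16.1 ± 12.6), and the SDs of the last 3 are as large as the differences between them. Floors and bounds cover counting error only, because the cDNA was amplified by PCR and reads carry no molecular identifiers.

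How often such a pattern occurs was counted over all genes. Of 6550 genes at 10 or more counts in all 4 dorsal controls, 0.26% (17 genes) were at 3 or fewer in all 5 mutants. In 5493 of the 6550 no mutant was at 3 or fewer, and 666, 245, 94 and 35 genes were that low in 1, 2, 3 and 4 mutants. With the genotypes exchanged, 10 of 6970 genes (0.143%) were present in all 5 dorsal mutants and at 3 or fewer counts in all 4 controls, among them Gpr143, a pigment cell receptor, and the secreted inhibitors Dkk1 and Fst. The same limits found 9 of 7277 genes (0.124%) in the ventral OS and 25 of 5440 (0.46%) in the axon region, so the share in the dorsal OS lies between those of the other regions. Within the range of control means that the 10 genes span (13.1 to 93.7 CPM), 14 of 3655 genes (0.383%) were at 3 or fewer in all dorsal mutants, and above that range 0 of 2423. The 17 genes became 57 without dorsal control 3, 39 without control 1, 29 without mutant 5 and 27 without mutant 3. Every mutant CPM was below every control CPM in 1.61% of 16145 genes tested in the dorsal OS, which the 10 genes had to show by their choice.

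**Figure D2:**
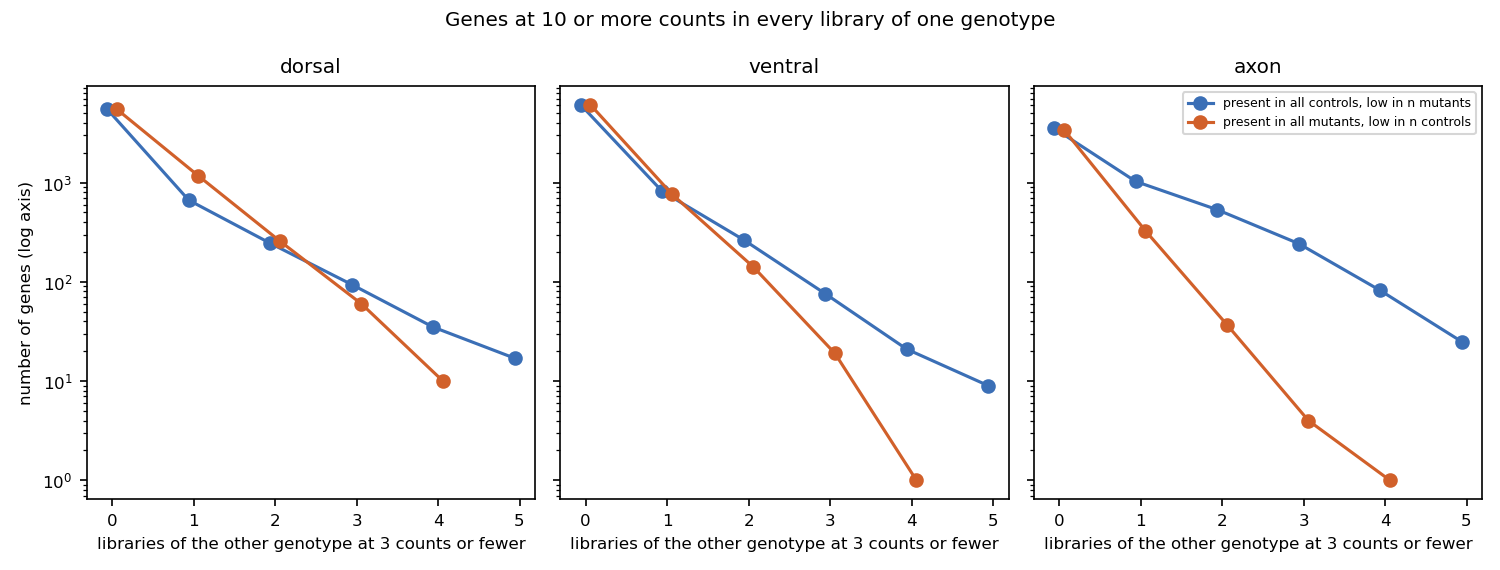
Number of genes (vertical axis, log scale) by how many libraries of the other genotype had 3 counts or fewer (horizontal axis), for genes with 10 or more counts in all controls (blue) or all mutants (orange) of the dorsal, ventral and axon regions. The blue dorsal line ends at the 17 genes that met the limits, and the axon line ends higher, at 25.

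The limits were close for some genes. By lowest control count, Gpr4 (13), Frk (14) and Edn3 (16) were just inside, as was Spsb1 (13), while Angptl7 and Gm3667 (8 each) and Adgrg6 and Pdgfrl (6 each) were just outside. By highest mutant count, Spsb1 (3), Fam49a (2), Chst3 and Adgre5 (1 each) were inside, and Cacna1g (5), Klf4 and Ston1 (7 each) and Airn (8) outside. Besides the 10, the limits were met by Spsb1, Adgre5, Card19, D430041D05Rik, Tlcd2, Defa30 and 2900052L18Rik. Adgre5 shares 24.6% of its exonic bases with the neighbour Ddx39, and 52.4% of the 50-base words of Defa30 occur in other genes, mostly defensins. Among the 10 genes the largest such values were 1.69% of exonic bases (Fam49a, with 4921511I17Rik) and 1.12% of 50-base words (Fam49a).

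Markers of other tissue differed between the same dorsal libraries. The summed level of 15 mesenchyme markers was 1162, 3602, 11603 and 1925 CPM in dorsal controls 1 to 4 and 56.1 to 395 CPM in dorsal mutants, with no overlap. Col3a1, a fibrillar collagen and the most abundant of them, was at 421 to 4263 CPM in controls and 0 to 81.5 CPM in mutants. In controls, 10 of the 15 were over 3 counts in all 4 libraries, and Twist2, Prrx2 and Tcf21 were at 3 or fewer in all. In mutants, 3 of the 15 were over 3 counts in all 5 libraries. Control 3 had the highest mesenchyme sum and also the highest Ccn4, Emilin3, Chst3, Frk and Prdm6, but control 2 had the highest Edn3, Pthlh, Kdelr3, Gpr4 and Fam49a. In bulk libraries fewer cells of a type and less RNA per cell cannot be told apart, and the part of mesenchyme in the dorsal pattern was not tested.

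Vessel markers overlapped between the dorsal groups. The 9 endothelial markers summed to 240 to 457 CPM in dorsal controls and 44.6 to 420 CPM in dorsal mutants, and the 10 mural markers to 117 to 266 CPM and 42.7 to 275 CPM. Markers of the OS and of pigment epithelium were read in dorsal libraries of both genotypes. The 11 markers of OS and astrocyte progenitors summed to 1518 to 2484 CPM in dorsal controls and 589 to 984 CPM in dorsal mutants. In these groups 8 and 7 of the 11 were over 3 counts in every library. They do not mark the dorsal region alone, at 2273 to 2536 CPM in ventral controls and 1486 to 4292 CPM in axon controls. The 8 pigment epithelium markers summed to 4947, 1339, 39.5 and 4904 CPM in dorsal controls 1 to 4 and 3253 to 12439 CPM in dorsal mutants. Rpe65 was at 3 or fewer counts in all of both. Control 3, the lowest by far, was also the control with the highest mesenchyme sum, and a difference in the tissue it held was not tested.

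**Figure D3:**
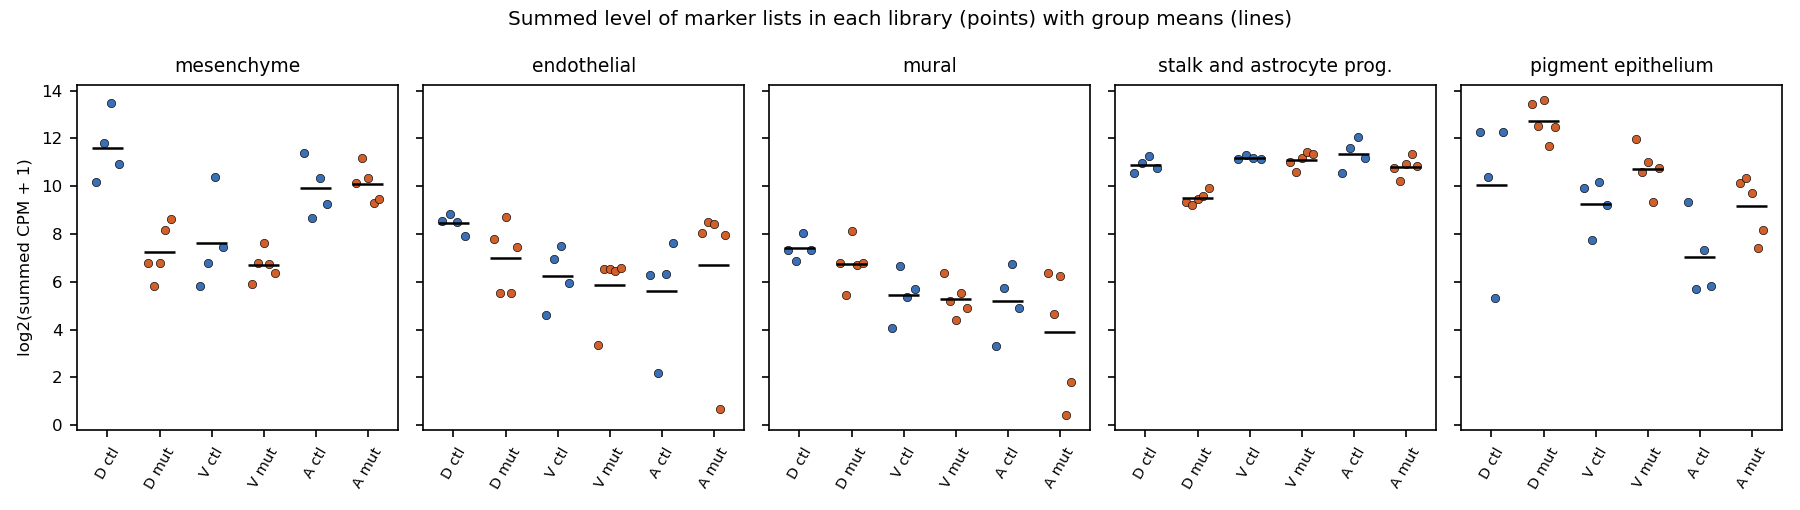
Summed level of 5 marker lists as log2(summed CPM + 1) (vertical axis) in dorsal (D), ventral (V) and axon (A) control (ctl, blue, n = 4) and mutant (mut, orange, n = 5) libraries. Points are libraries and lines are group means. The dorsal groups do not overlap for mesenchyme (1162 to 11603 against 56.1 to 395 CPM) or for stalk and astrocyte progenitors (1518 to 2484 against 589 to 984 CPM).

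In the ventral and axon libraries most of the 10 genes were read in some libraries and at 0 in others. Fam49a was read in every ventral library and every axon control, and Chst3 in every ventral control. Edn3 was also read in every ventral control, but with only 1 count in control 4. Gpr4 was read in no axon mutant, while Emilin3 and Prdm6 were at 0 in all ventral mutants. Of 180 gene and library combinations in the ventral and axon regions, 95 were at 0 counts, 8 at 1 to 3 and 77 above 3. The 77 values above 3 had a median of 325 counts, and 55 of them were above 100 counts. Ventral controls were above 3 counts in 55.0% of combinations (22 of 40) and ventral mutants in 42.0% (21 of 50). Axon controls reached 50% (20 of 40) and axon mutants 28.0% (14 of 50). Over the 6550 genes present in all dorsal controls these shares were 95.2%, 94.6%, 89.7% and 82.1%. Over the 3655 genes within the range of control means of the 10, they were 93.0%, 92.4%, 84.6% and 73.8%. Neither set was chosen for low counts in dorsal mutants as the 10 were, so the shares are not alike in choice and are descriptions. The dorsal mutants were above 3 counts for 94.9% of the 6550 genes and for 0 of 50 combinations of the 10, the latter by choice.

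**Figure D4:**
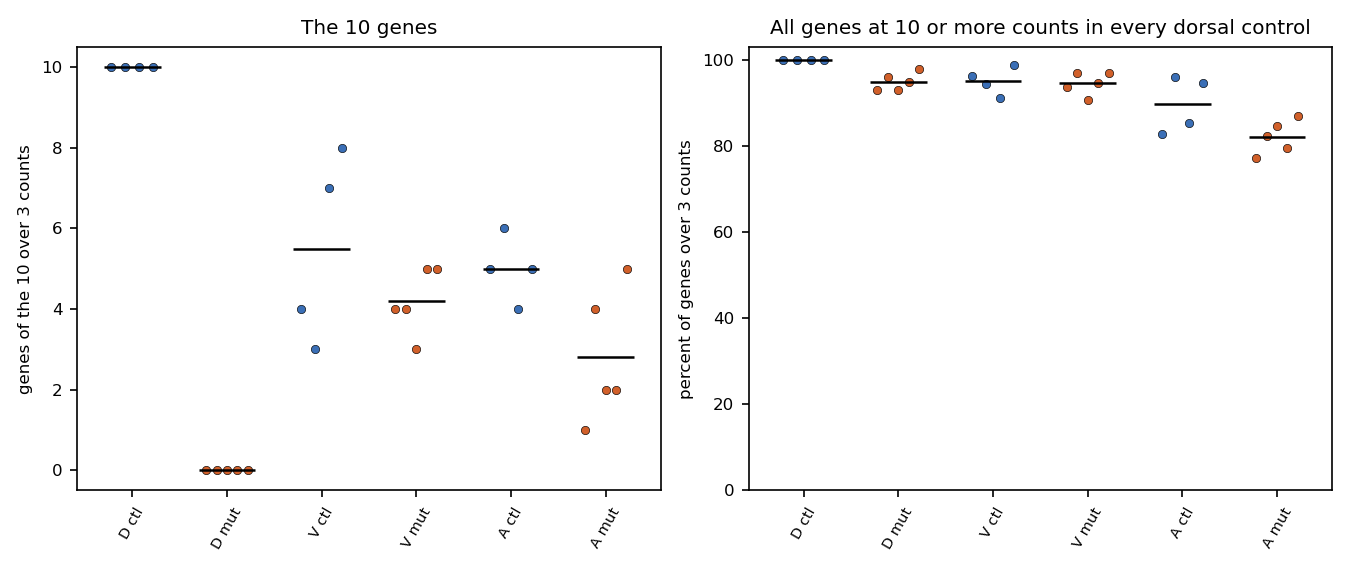
Left, number of the 10 genes over 3 counts (vertical axis) in each dorsal (D), ventral (V) and axon (A) control (ctl, blue, n = 4) and mutant (mut, orange, n = 5) library, with group means as lines. Right, percent of the 6550 genes present in all dorsal controls that were over 3 counts in the same libraries. Ventral controls held 3 to 8 of the 10 and ventral mutants 3 to 5, while the ventral and axon groups read 82.1% to 95.2% of the 6550 genes on average.

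In the ventral OS, 0 of the 10 genes differed between genotypes by edgeR, as did 0% of 16139 genes tested. At an unadjusted p under 0.05 the numbers were 0 of the 10 genes and 3.19% of all genes, and DESeq2 and limma voom also called 0 of the 10, against 2.45% and 0.0372% of genes, DESeq2 giving no adjusted p for Pthlh and Prdm6. The adjusted p of all 10 was 0.999. The fitted log2 fold change was below 0 for 9 of the 10, against 53.2% of all genes, and the mean log2(CPM + 1) was lower in mutants for 8 of the 10, Ccn4 being lower in the fit and higher in the mean. Both counts include Emilin3, which passed the filter on low counts only through dorsal libraries. It had 8 counts in ventral control 3 and 0 in every other ventral library, so its fit is a description. The groups overlapped for each of the 10, where every mutant was below every control in 0.706% of genes.

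Fam49a alone of the 10 was above 3 counts in all 9 ventral libraries. Its levels were 102, 73.1, 37.8 and 21.8 CPM in ventral controls 1 to 4 and 16.8, 17.3, 87.3, 58.2 and 71.9 CPM in ventral mutants 1 to 5. The genotypes spanned nearly the same range, with a log2 fold change of -0.23 ± 0.75 (SE, edgeR quasi-likelihood test, adjusted p = 0.999). The gene that was almost absent from dorsal mutants was thus read at 16.8 CPM or more in every ventral mutant.

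Chst3 had the largest separation in the ventral OS. It was at 3.32, 64.7, 33.3 and 20.4 CPM in controls 1 to 4 and at 0, 1.84, 0, 0.627 and 3.67 CPM in mutants 1 to 5. The groups overlapped by a single library, control 1 lying below mutant 5. The mean log2(CPM + 1) was 4.42 in controls and 0.89 in mutants, a difference of -3.53. The two-sided exact permutation test gave p = 0.0159 with the labels free and 0.025 with them permuted within batches, the smallest value that design allows. Of the 10 exact tests in the ventral OS this was the only 1 under 0.05, and it was not adjusted for their number. The edgeR log2 fold change of Chst3 was -3.60 ± 2.30 (SE, adjusted p = 0.999).

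Edn3 was above 3 counts in 3 of 4 ventral controls (33.0, 0.381 and 18.6 CPM, with 0.0621 CPM in control 4) and in 2 of 5 ventral mutants (4.43 and 16.5 CPM). Kdelr3 was at 43.9 and 32.5 CPM in ventral controls 3 and 4 and at 0 counts in controls 1 and 2, but reached 84.1 CPM in mutant 1 and 8.29 CPM in mutant 4. Frk was at 35.4 and 8.70 CPM in controls 1 and 4 and at 9.06 and 1.29 CPM in mutants 4 and 5. Each of these 3 genes was thus above 3 counts in some ventral libraries of both genotypes and at 3 or fewer in others.

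Gpr4 and Ccn4 reached higher values in ventral mutants than in ventral controls. Gpr4 was at most 2.80 CPM in controls and at 18.7 and 17.4 CPM in mutants 4 and 5, with an exact permutation p of 0.365. Ccn4 was above 3 counts in 1 control (3.85 CPM) and in mutants 1 to 3 (1.56, 29.2 and 0.118 CPM), with an exact permutation p of 0.643. Pthlh was read in controls 3 and 4 (44.3 and 1.49 CPM) and in mutant 1 (30.4 CPM). Only Emilin3 and Prdm6 were at 0 counts in all 5 ventral mutants, and most of their ventral controls were at 0 too. Emilin3 had 8 counts in control 3 and 0 in the others, and Prdm6 was at 20.5 and 0.683 CPM in controls 3 and 4 and at 0 in the others. Ventral control 3 also had the highest mesenchyme sum of the ventral OS, 1351 CPM against 55.4 to 199 CPM in the other 8 libraries.

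In the axon region, 0 of the 10 genes differed between genotypes by edgeR, as did 0% of 14977 genes. At an unadjusted p under 0.05 the numbers were 0 of the 10 and 3.55% of all genes, and DESeq2 and limma voom also called 0 of the 10, against 10.7% and 0.3% of genes, DESeq2 giving no adjusted p for Ccn4, Kdelr3, Chst3, Frk and Prdm6. Adjusted p was 0.880 or higher, and the smallest of the 10 exact permutation p-values was 0.0873, for Fam49a. The fitted log2 fold change was below 0 for 9 of the 10, against 57.7% of all genes, and the mean log2(CPM + 1) was lower in mutants for 7 of the 10, with Edn3 and Ccn4 lower in the fit and higher in the mean. Both counts again include Emilin3, whose fit is a description here too because only dorsal libraries brought it past the filter. The groups overlapped for all 10, where every mutant was below every control in 1.04% of genes.

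Fam49a was at 65.4, 23.6, 3.22 and 77.5 CPM in axon controls 1 to 4 and at 0.0572, 0, 1.02, 79.0 and 0 CPM in axon mutants 1 to 5. The highest axon mutant exceeded the highest axon control, while the other 4 lay below all controls. Kdelr3 was above 3 counts in 3 controls (20.5, 19.1 and 19.8 CPM) and in 4 mutants (212, 3.33, 11.0 and 53.4 CPM), so its highest level in any library was in an axon mutant. Edn3 was also strong in axon mutants, at 80.9, 51.8 and 13.0 CPM in mutants 1, 2 and 5 against 47.2, 0.716 and 24.3 CPM in controls 2 to 4. Both genes were thus read well above the floor in mutant tissue outside the dorsal OS.

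Chst3 and Gpr4 had at most 1 count in any axon mutant. Chst3 was at 26.0 CPM in axon control 2, at 3 or fewer counts in the other controls and at 1 count in mutant 1, and Gpr4 was at 1.36 CPM in control 2 and at 0 in the other 8 axon libraries. Pthlh was at 45.8, 7.09 and 12.2 CPM in controls 1, 2 and 4 and at 43.3 CPM in mutant 5 only. Frk was at 24.6 and 22.0 CPM in controls 1 and 3 and at most 2.69 CPM in mutants. Ccn4, Emilin3 and Prdm6 were each above 3 counts in 1 axon control (3.34, 15.7 and 22.6 CPM) and in 1 axon mutant (6.56, 10.4 and 8.16 CPM). The mesenchyme markers were present in both axon groups, at 401 to 2659 CPM in controls and 629 to 2331 CPM in mutants.

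Ventral and axon regions were also compared within each genotype, on libraries the choice did not use. In these as in the genotype comparisons the filter on low counts took in dorsal libraries. Emilin3 passed it only through them, since it was over 10 counts in 2 of the 18 ventral and axon libraries, so its fits are descriptions. In controls 0 of the 10 genes were called, against 0.0316% of 15839 genes (5 genes, and 0 with the embryo number as a block), and 0 of the 10 were under an unadjusted p of 0.05, against 9.19% of genes. DESeq2 and limma voom called 3.28% and 0.177% of genes there and 0 of the 10. In mutants edgeR called 0 of the 10, against 0.443% of 15804 genes (70 genes, and 41 with the block). Gpr4, Chst3 and Prdm6 were under an unadjusted p of 0.05 there, against 21.8% of all genes, each with an adjusted p of 0.214. Emilin3 had the same adjusted p and was also under 0.05, but its value carries no weight as a test because of the filter. With the block, Fam49a alone of the 10 was under an unadjusted p of 0.05, and the lowest adjusted p was 0.573. DESeq2 called 1 of the 10, Gpr4 (adjusted p = 0.0187), against 10.6% of all genes, and limma voom 0 against 3.4%. The 70 genes fell to 42, 43 and 45 without ventral mutant 1, ventral mutant 5 and axon mutant 3, and the 5 genes in controls to 2 or 3 without any of ventral controls 1, 3 and 4 or axon controls 1, 3 and 4. Gpr4 and Chst3 were above 3 counts in 3 of 5 ventral mutants each and at most at 1 count in axon mutants, and Emilin3 and Prdm6 were read in axon mutant 5 only.

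Levels of the 10 genes were compared with each other over the 18 ventral and axon libraries. Pearson's r between the log2(CPM + 1) levels of 45 gene pairs ranged from -0.38 (Fam49a and Kdelr3) to 0.65 (Pthlh and Emilin3), with a median of -0.01 and 23 pairs below 0. The higher values rest on few libraries with reads, as axon mutant 5 was among the 3 libraries with Emilin3 and the 7 with Pthlh. Against the mesenchyme sum in the same libraries, r ranged from -0.52 for Fam49a to 0.40 for Emilin3. Genes most like the mean of the 10 over these 18 libraries were Slc25a3 (r = 0.78), Gle1 (0.78), Ints8 (0.78), Gas2 (0.77), Ngly1 (0.77), Usf3 (0.76), Nup160 (0.76) and Gm12231 (0.75). These values are descriptions, and all points share library depth and complexity with the genes compared.

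Relatives and partners of the 10 genes were then examined, from lists of families and pathways. Besides the 10, 44 of them passed the filter on low counts. In the ventral comparison edgeR called 0 of them and in the axon comparison 0 of 38, as it called 0% of all genes in each. At an unadjusted p under 0.05 the numbers were 0 and 2, against 3.19% and 3.55% of all genes. In the dorsal OS every mutant was below every control for 1 of the 44, against 1.61% of all genes, a share near that background. The gene was Ednrb, the receptor of Edn3, and its dorsal values are a description. Ednrb was at 132, 97.0, 346 and 64.5 CPM in dorsal controls 1 to 4 and at 0, 21.7, 25.2, 47.7 and 44.7 CPM in dorsal mutants 1 to 5. Ednrb was thus still read in 4 of 5 dorsal mutants. Ednrb is also among the 6 markers of neural crest and melanoblasts, which summed to 96.6 to 347 CPM in dorsal controls and 33.9 to 131 CPM in dorsal mutants, and the part of those cells was not tested. In the ventral OS the levels of Ednrb overlapped, at 37.2 to 381 CPM in controls and 109 to 399 CPM in mutants.

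Pth1r, the receptor of Pthlh, was at 0, 9.43, 33.2 and 13.9 CPM in dorsal controls and at 0.0917, 7.21, 0.212, 0 and 7.38 CPM in dorsal mutants, so these groups overlapped. Emilin1, a relative of Emilin3, was at 0.873 to 309 CPM in dorsal controls and at 0, 0, 0, 11.5 and 17.9 CPM in dorsal mutants, also with overlap through control 1. In the CCN family, the Ccn4 relatives Ccn1 and Ccn2 were read in dorsal mutants at up to 79.8 and 40.2 CPM. The 5 genes of that family that passed the filter, Ccn4 among them, had a median dorsal log2 fold change of 2.38. Over all genes it was -0.04, and both values are descriptions.

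Kdelr1, Kdelr2, Fam49b, Chsy1 and Fyn, the abundant genes of the lists around Kdelr3, Fam49a, Chst3 and Frk, were read in all 27 libraries. The less abundant Chst7, a sulphotransferase like Chst3, was over 3 counts in 4 libraries, and Ptk6, a kinase near Frk, in 2. Kdelr2, which does the same retrieval as Kdelr3, was at 180 to 328 CPM in dorsal controls and 98.5 to 267 CPM in dorsal mutants. Kdelr1 was at 2.95 to 100 CPM and 4.39 to 35.2 CPM. Of the 3 KDEL receptor genes, only Kdelr3 was thus at 0 counts in the dorsal mutants. Fam49b was at 28.2 to 82.9 CPM in dorsal controls and 3.11 to 75.5 CPM in dorsal mutants. Chsy1, which builds the chain that Chst3 sulphates, was at 64.5 to 155 CPM and 58.5 to 97.6 CPM. Fyn, a Src-related kinase like Frk, was at 24.5 to 318 CPM and 33.9 to 93.9 CPM in the dorsal OS. Of the 38 relatives tested in the axon region, Fyn alone had every mutant (116 to 142 CPM) above every control (0.723 to 86.7 CPM). This held for 0.24% of all genes tested there, and the edgeR adjusted p of Fyn was 0.880.

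**Figure D5:**
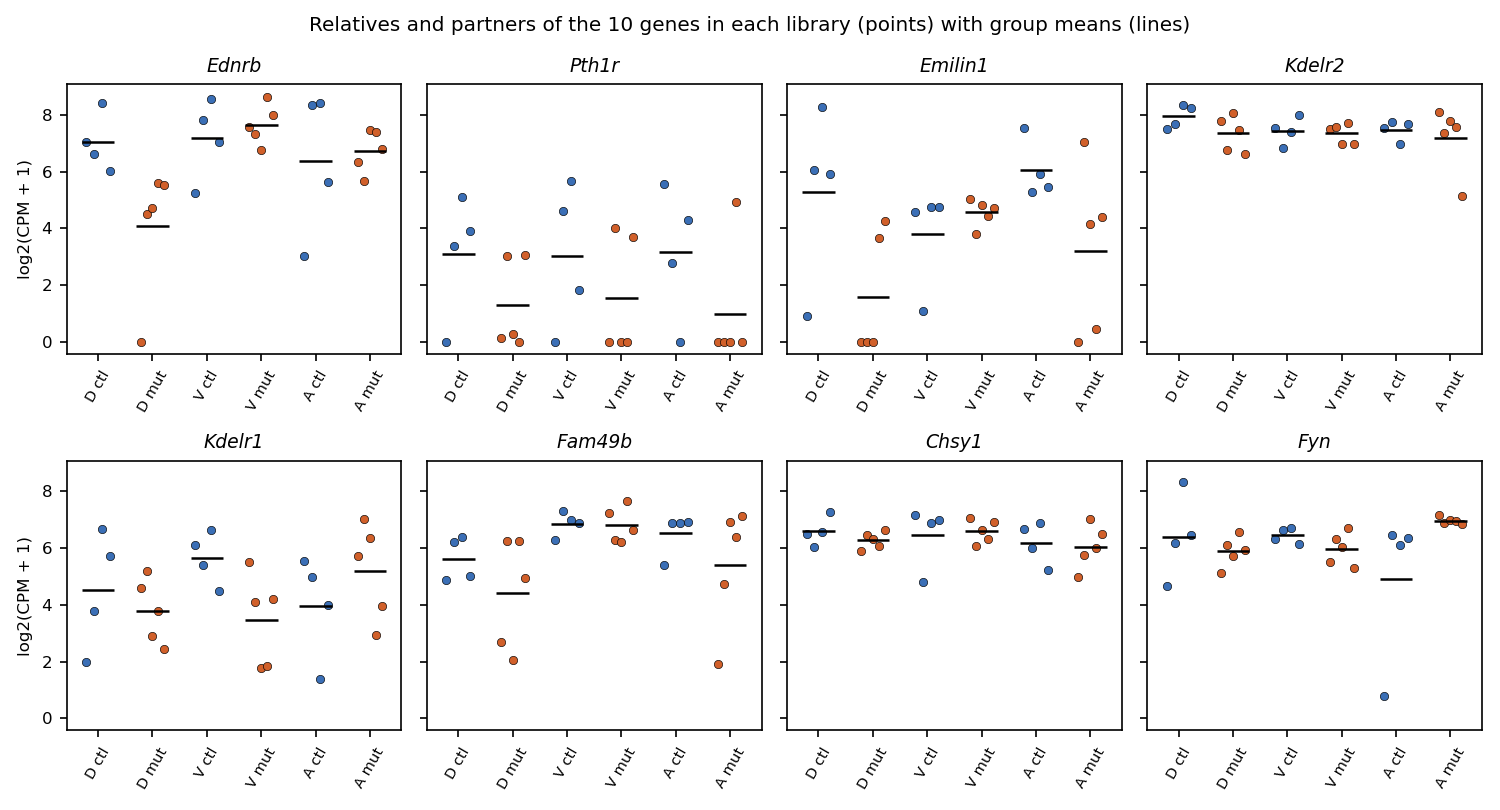
Log2(CPM + 1) level (vertical axis) of 8 relatives and partners of the 10 genes in dorsal (D), ventral (V) and axon (A) control (ctl, blue, n = 4) and mutant (mut, orange, n = 5) libraries. Points are libraries and lines are group means. Kdelr2, Kdelr1, Fam49b, Chsy1 and Fyn were read in all 27 libraries, and the dorsal groups are apart for Ednrb (64.5 to 346 against 0 to 47.7 CPM).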

How the data were processed

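Regions were cut from cryosections by laser capture and their cDNA was PCR-amplified before Nextera XT single-end sequencing. The authors aligned reads to mm10 with STAR and deposited raw counts per gene from HTSeq (Salmon is also named in the submitters' processing notes). Versions, annotation release and strand are not given in the sources used here, so antisense reads cannot be told apart. Gene names and positions came from GENCODE M21, which named 55227 of 55487 IDs.

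The 10 genes, the families and the marker lists were chosen with earlier results of these data known. The text names the 10 genes, the others within the count limits and up to 4 on each side of them, Smarcc1, any called relative plus up to 2 per family list and 4 per marker list by mean CPM, and the 8 genes most like the mean of the 10. Genotypes and regions were compared with edgeR 4.0.16 (quasi-likelihood, TMM, batch term in genotype comparisons; R 4.3.3), on genes over 10 counts in at least 3 of 27 libraries, with Benjamini-Hochberg adjustment. Calls required a log2 fold change beyond 0.58 in either direction with the adjusted p below 0.05. Single genes were also compared by exact two-sided permutation of log2(CPM + 1). DESeq2 1.42.0, limma voom 3.58.1, other scaling, filters, batch settings and left-out libraries were tried, and scripts were tested on simulated data. Regions with the same number were taken as 1 embryo in the block fits, and the main ventral against axon fits did not use the number. With 1 library per embryo and region, p-values measure the spread between libraries. Embryo, dissection and amplification cannot be told apart in that spread. Deviations from group means of same-numbered ventral and axon libraries correlated at -0.003 to 0.072 in controls and -0.002 to 0.051 in mutants, and numbers do not pair controls with mutants.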

Additional observations from a re-analysis of the deposited data

Results flagged for a closer look

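Of 79 groups of 4 or 5 libraries examined, 30 held a library set far apart from the others by Dixon's criterion at its 5% limit. That rate holds for normally distributed values, and a group with reads in a single library always meets the criterion. The 30 can therefore not be set against a rate by chance. Of the 30, 27 concern the 10 genes, and most are groups in which a single library held nearly all reads.

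In the dorsal OS, control 3 stood apart for Emilin3 (215 CPM) and Frk (127 CPM), and the library labelled mutant 2 for Chst3 (0.0596 CPM, a single read). In ventral controls, control 3 stood apart for Pthlh (44.3 CPM), Prdm6 (20.5 CPM) and Emilin3 (0.457 CPM), and control 4 for Ccn4 (3.85 CPM) and Gpr4 (2.80 CPM). In ventral mutants the libraries were mutant 1 for Kdelr3 (84.1 CPM) and Pthlh (30.4 CPM), mutant 2 for Ccn4 (29.2 CPM), mutant 4 for Frk (9.06 CPM) and mutant 5 for Edn3 (16.5 CPM).

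In axon controls, control 1 stood apart for Emilin3 (15.7 CPM), Ccn4 (3.34 CPM) and Kdelr3, where it was the low library at 0.0 CPM. Axon control 2 stood apart for Chst3 (26.0 CPM) and Gpr4 (1.36 CPM), and axon control 4 for Prdm6 (22.6 CPM). In axon mutants the libraries were mutant 1 for Chst3 (0.0572 CPM, a single read), mutant 2 for Kdelr3 (212 CPM), Ccn4 (6.56 CPM) and Frk (2.69 CPM), mutant 4 for Fam49a (79.0 CPM), and mutant 5 for Pthlh (43.3 CPM), Emilin3 (10.4 CPM) and Prdm6 (8.16 CPM). Among marker lists, ventral control 3 was high for mesenchyme (1351 CPM), dorsal mutant 3 high for mural cells (275 CPM) and ventral mutant 1 low for endothelium (9.23 CPM).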

How the results depend on the processing

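Of the 10 genes, 0 were called in a genotype comparison under any alternative run. Over all genes, the ventral count of 0 became 342 with DESeq2, 6 with limma voom and 8 with no count filter, and the axon count of 0 became 1238, 45 and 10. Ventral against axon controls moved from 5 genes to 424 with DESeq2, 28 with limma voom, 18 with the newer quasi-likelihood method, 2 with RLE scaling, 18 with no count filter, 0 with the replicate block and 2 to 4 with 1 library left out. The mutant comparison moved from 70 genes to 1353 with DESeq2, 537 with limma voom, 41 with the replicate block and 42 to 70 with 1 library left out. Besides the 10, the 7 genes within the count limits became 12 with 5 counts asked of controls, 3 with 0 counts asked of mutants (Fam49a and Chst3 then fell outside), 5 with 20 counts asked of controls and 6 with limits in CPM (7 of the 10 remaining in each), 116 with batch B libraries only and 11 to 47 with 1 library left out. They became 21 without dorsal mutants 1 and 2, a setting chosen after seeing the data, as was leaving out controls for the dorsal bounds.

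Directions of uncalled genes were unstable, turning in 38 of 338 alternative fits. These include Emilin3, whose fits are descriptions because only dorsal libraries brought it past the filter. It turned in 6 of 17 axon fits and 0 of 16 ventral fits. Ventral log2 fold changes above 0 were found for Ccn4 with the newer method (1.64) and without the batch term (2.74), for Edn3 (0.32), Fam49a (0.55) and Frk (0.85) in batch B, and for Kdelr3 (4.75) and Pthlh (2.34) with the replicate block. In the axon region they were found for Edn3 (0.23), Emilin3 (0.34) and Prdm6 (0.19) with limma voom, for Edn3 with the newer method (0.28), without the batch term (0.74) and with the replicate block (0.82), for Ccn4 without the batch term (0.56), and for Fam49a (0.21), Emilin3 (9.71) and Pthlh (1.87) in batch B. Kdelr3 was at -0.63 with the replicate block. In the genotype comparisons this block joined controls and mutants by number, although numbers do not pair them. Its values are therefore descriptions only, and they are included in the 338 fits and the 38 turns. With 1 library left out, ventral values ran from -7.52 to 4.05 for Ccn4, -6.65 to 0.30 for Edn3, -0.62 to 0.53 for Fam49a, -8.44 to 0.83 for Frk and -2.70 to 4.15 for Kdelr3. Axon values ran from -1.84 to 5.07 for Edn3, -9.22 to 9.64 for Emilin3, -9.43 to 0.19 for Fam49a, -5.27 to 7.56 for Prdm6 and -11.71 to 1.82 for Pthlh. The cause of these shifts was not tested. Values at 0 counts limit every fold, and 95 of 180 ventral and axon values were at 0.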
